A study of Mus musculus with 6 samples.

Results

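Gluconeogenesis was described through 10 genes chosen by symbol: the enzyme and transporter genes Pck1, G6pc, Fbp1, Pcx and Slc37a4, and the regulator genes Ppargc1a, Creb3l3, Crtc2, Sik1 and Creb1. Each was read from the probe sets whose platform annotation held that symbol alone, which gave 11 probe sets of 35512 and 10 genes of the 19938 that had such a probe set. The livers came from 3 mice homozygous for the G609G allele of Lmna, labelled LmnaG609G/G609G knock-in (replicates 1, 3 and 5, called KI1, KI3 and KI5), and from 3 control mice labelled wild-type, Lmna+/+ (replicates 2, 4 and 6, called WT2, WT4 and WT6). All 6 mice were female, on a C57BL/6 background, 3 months old and starved for 6 h, so every value below was measured after a short fast. Lmna encodes lamins A and C, and the G609G allele is a germline change, not restricted to the liver, that alters splicing of the transcript and models Hutchinson-Gilford progeria. Each mouse had 1 array, so the limma tests measured the spread between mice, with n = 3 per genotype throughout.

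Gluconeogenesis makes glucose in the liver from lactate, amino acids and glycerol. Pyruvate carboxylase (Pcx) and the cytosolic phosphoenolpyruvate carboxykinase (Pck1) turn pyruvate into phosphoenolpyruvate, fructose-1,6-bisphosphatase (Fbp1) bypasses the phosphofructokinase step, and glucose-6-phosphatase (G6pc), fed by the glucose-6-phosphate transporter (Slc37a4), releases free glucose. In fasting, glucagon raises cAMP, CREB (Creb1) and its coactivator CRTC2 bind cAMP response elements, and PGC-1alpha (Ppargc1a) is induced and coactivates the enzyme genes. The salt-inducible kinase SIK1 is itself induced by cAMP and phosphorylates CRTC2, which keeps the coactivator out of the nucleus. CREBH (Creb3l3) is a liver transcription factor held in the endoplasmic reticulum membrane until proteases release it during fasting.

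The arrays had medians between 97 and 104 intensity units and correlated at 0.988 to 0.993 among knock-in mice, 0.992 to 0.995 among wild-type mice and 0.960 to 0.980 between the genotypes. Of 4 measured hepatocyte markers (Alb, Apoa1, Ttr and Cps1) 0 were called, and 2 had an unadjusted p under 0.05. Their summed intensity was 58488 to 63423 in knock-in and 60179 to 63179 in wild-type livers. The counts for markers of other cells stand against 14.9% of all tested probe sets called higher and 10.9% called lower. Of 8 Kupffer cell markers 1 was lower (summed intensity 2238 to 4409 in knock-in, 3871 to 6510 in wild-type), of 5 sinusoidal endothelial markers 1 was higher and 3 were lower (3444 to 4929 and 4307 to 4683), and of 5 stellate cell markers 1 was lower (1476 to 2085 and 2285 to 2536). At an unadjusted p under 0.05 by limma, 4 of the 8 Kupffer cell markers were lower and 1 was higher. Of 4 neutrophil markers 2 were higher (303 to 330 in knock-in, 202 to 244 in wild-type) and of 3 lymphocyte markers 1 was lower (338 to 348 and 355 to 423, over 4 measured). Cholangiocyte (4 tested, 368 to 394 in knock-in, 367 to 391 in wild-type) and pancreatic acinar markers (3 tested, 209 to 238 and 179 to 210) gave 0 calls, also at an unadjusted p under 0.05. Of the adipocyte markers (77 to 84 and 74 to 82, over 2 measured) only Lep was tested. It read 36 to 46, near the filter on dim probe sets, and was not called, also at an unadjusted p under 0.05. No marker read 0, since the lowest value on any array was 7. The part of these cells in the results was not tested, and in bulk liver fewer cells of a type and less RNA per cell cannot be told apart.

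The promoter windows of 5 members are shown because they are the ones that hold a searched motif. RefSeq windows (GRCm38.p6), running from 250 bases before an annotated start to 50 after it, were on hand for 8 of the members in 12 windows. No window was on hand for Crtc2 or Sik1, so these members were not searched. Each is written 5′ to 3′ on the gene's strand, and capitals mark the matches to the half-site of the cAMP response element (TGACG, or CGTCA on the opposite strand) and to the insulin response core (TGTTTTG, or CAAAACA).
Pck1, chr2:173152823-173153122, plus strand: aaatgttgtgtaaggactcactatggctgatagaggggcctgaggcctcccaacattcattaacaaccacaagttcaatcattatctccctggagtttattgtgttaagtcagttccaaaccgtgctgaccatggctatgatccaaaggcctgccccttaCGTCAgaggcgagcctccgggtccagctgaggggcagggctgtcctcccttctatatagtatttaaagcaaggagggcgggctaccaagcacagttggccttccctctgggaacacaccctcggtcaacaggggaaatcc
Ppargc1a, chr5:51567676-51567975, minus strand: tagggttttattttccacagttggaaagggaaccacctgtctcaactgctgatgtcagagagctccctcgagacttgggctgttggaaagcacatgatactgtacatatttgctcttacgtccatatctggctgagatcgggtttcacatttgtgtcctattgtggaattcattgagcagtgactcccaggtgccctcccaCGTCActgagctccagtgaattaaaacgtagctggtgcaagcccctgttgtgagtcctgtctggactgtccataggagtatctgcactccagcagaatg
Slc37a4, chr9:44396696-44396995, plus strand: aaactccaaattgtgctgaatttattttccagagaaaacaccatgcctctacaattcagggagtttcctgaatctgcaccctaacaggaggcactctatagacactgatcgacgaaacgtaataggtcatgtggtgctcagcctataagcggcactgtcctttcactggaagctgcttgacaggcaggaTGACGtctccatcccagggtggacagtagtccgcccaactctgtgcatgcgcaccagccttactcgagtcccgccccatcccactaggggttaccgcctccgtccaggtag
G6pc, chr11:101367466-101367765, plus strand: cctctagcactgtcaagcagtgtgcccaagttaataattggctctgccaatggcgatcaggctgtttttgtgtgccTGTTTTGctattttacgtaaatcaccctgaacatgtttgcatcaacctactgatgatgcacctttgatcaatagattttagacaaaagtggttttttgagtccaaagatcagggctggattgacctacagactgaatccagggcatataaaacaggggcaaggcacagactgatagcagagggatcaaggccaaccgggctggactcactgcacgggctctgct
Creb3l3, chr10:81092542-81092841, minus strand: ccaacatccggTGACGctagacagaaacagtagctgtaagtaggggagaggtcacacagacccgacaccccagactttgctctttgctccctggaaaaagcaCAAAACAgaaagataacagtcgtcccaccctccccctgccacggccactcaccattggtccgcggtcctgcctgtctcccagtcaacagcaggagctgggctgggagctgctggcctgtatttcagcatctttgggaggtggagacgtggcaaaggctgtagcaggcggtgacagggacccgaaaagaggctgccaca
The half-site began 90 bases before the start in Pck1, 49 in Ppargc1a, 61 in this window of Slc37a4 and 239 in this window of Creb3l3. It was found in 4 of the 8 genes, against 23.0% of all 27025 genes with a window, and in 5 of the 12 windows, against 20.8% of 32851. A window of Slc37a4 that starts further on and shares bases with the one shown held it as well. The insulin response core was found in G6pc and Creb3l3, 2 of 8 genes against 7.20% of all. The full element (TGACGTCA), the FOXO core (TGTTTAC) and the glucocorticoid response element were searched on both strands and matched 0 of the 12 windows, against 1.79%, 3.65% and 0.00913% of all windows. The half-site is part of the full element. A match describes the letters of a window and was not tested as a binding site.

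The comparison asked how transcripts of gluconeogenesis differ in knock-in liver. Among the regulators, Ppargc1a was 4.92-fold, Sik1 4.75-fold and Crtc2 2.01-fold higher in knock-in liver, and Creb3l3 was 3.03-fold lower, while the 5 enzyme and transporter genes differed by 1.22-fold to 1.36-fold. Of these, Pck1 and Slc37a4 were higher and Fbp1 and Pcx were lower. G6pc and Creb1 were not called. Fold changes are on the scale of log2(intensity + 16), and a call means a Benjamini-Hochberg adjusted p below 0.05 over 26634 tested probe sets by limma. All 10 members passed the filter on dim probe sets, and 8 were called, against 25.9% of all tested probe sets: 5 higher, against 14.9%, and 3 lower, against 10.9%. The genotypes did not overlap at any of the 10, against 41.1% of tested probe sets. The members lay between percentiles 74.5 and 99.8 of mean intensity and were chosen with earlier results of these data known. The shares cover all tested probe sets, dim ones included, and are not matched to the members. The median log2 change was 0.33 over the members and 0.03 over all tested probe sets, and the median absolute log2 change was 0.41 and 0.18.

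**Figure D1:**
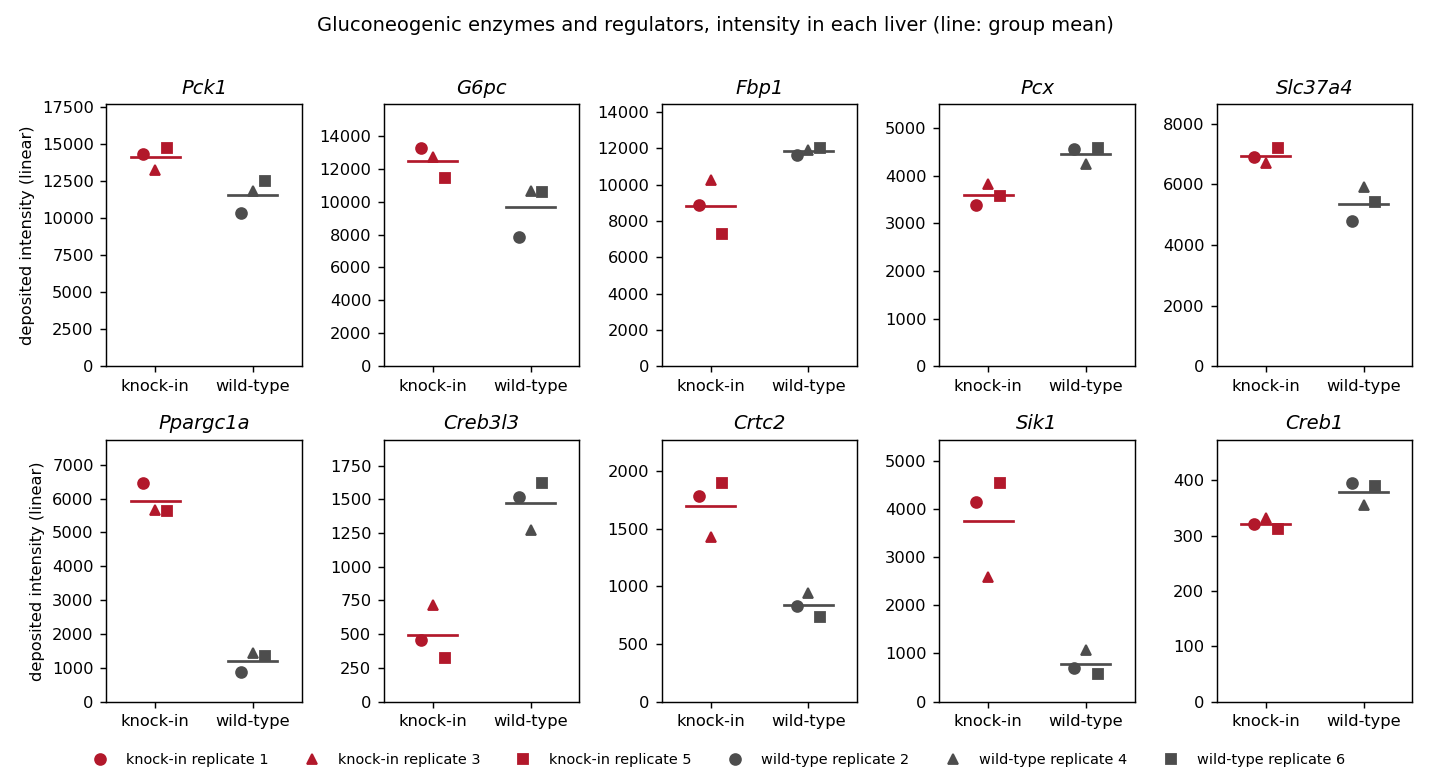
Deposited intensity (linear axis from 0) of each member in each liver, with knock-in mice at the left and wild-type mice at the right of each panel; symbols mark the replicate and lines the group mean. In all 10 panels the genotypes do not overlap, and the gap is widest relative to the level for Ppargc1a, Sik1, Creb3l3 and Crtc2.

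**Figure D2:**
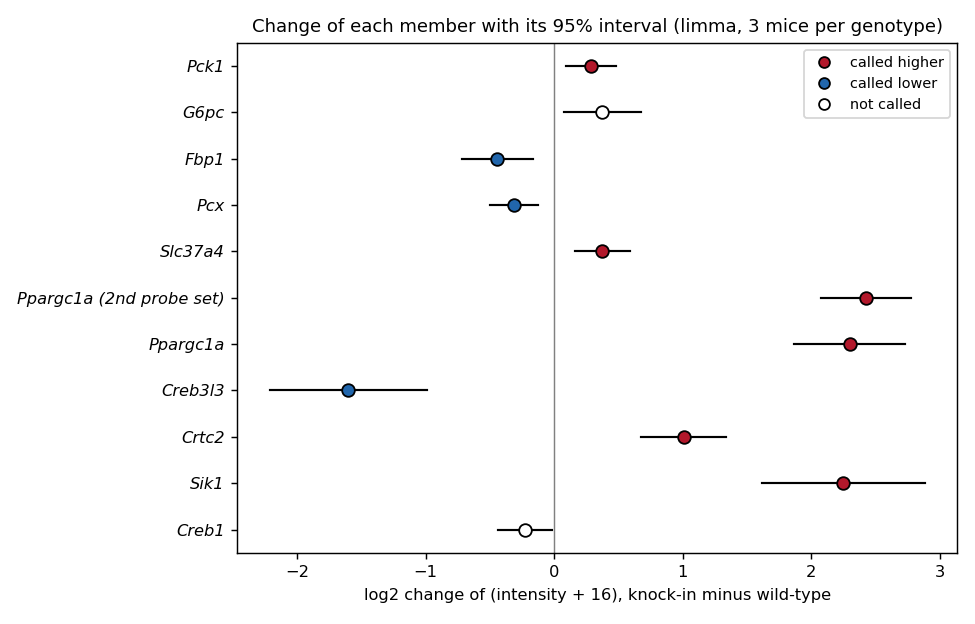
Log2 change (knock-in minus wild-type) of each member's probe set with its 95% interval from limma; filled points were called. Ppargc1a at 2.30 and 2.42, Sik1 at 2.25, Crtc2 at 1.01 and Creb3l3 at -1.60 lie apart from the enzyme genes, which lie between -0.44 and 0.37.

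Pyruvate enters the pathway through Pcx, the mitochondrial carboxylase that makes oxaloacetate. Pcx read 3390, 3819 and 3579 in knock-in livers, against 4562, 4241 and 4581 in wild-type livers. The highest knock-in reading lay below the lowest wild-type one. Pcx was lower in knock-in, with means of 3596 ± 215 and 4461 ± 191 (SD), a log2 change of -0.31 ± 0.08 (SE) and a limma adjusted p of 0.0266. Pck1, the next and classically rate-controlling step, read 14312, 13244 and 14706 in knock-in livers, against 10362, 11833 and 12478 in wild-type livers. The knock-in mice were all above the wild-type mice, and the closest pair differed by less than the range within wild-type. Pck1 was 1.22-fold higher (14087 ± 756 and 11558 ± 1085, log2 change 0.29 ± 0.08, limma adjusted p = 0.0402). Pck1 lost its call when KI1, KI5, WT2 or WT4 was dropped (adjusted p = 0.0724 to 0.123), with no filter, with eBayes without trend, and once arrays were quantile normalized or centred on their medians (adjusted p = 0.0539 to 0.0759). Pcx lost its call when KI1, KI5, WT2 or WT6 was dropped (adjusted p = 0.0687 to 0.101).

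Fbp1, the bisphosphatase in the middle of the route, read 8883, 10237 and 7257 in knock-in livers, against 11621, 11871 and 12004 in wild-type livers. The wild-type mice lay close together and the knock-in mice were spread below them, with KI5 lowest. Fbp1 was 1.36-fold lower, with means of 8792 ± 1492 and 11832 ± 194, a log2 change of -0.44 ± 0.12 and a limma adjusted p of 0.0302. Its call was lost when KI1, WT2, WT4 or WT6 was dropped (adjusted p = 0.0757 to 0.0859) and with no filter (adjusted p = 0.0509).

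The last step needs the phosphatase and the transporter that brings its substrate into the endoplasmic reticulum. Slc37a4, the transporter, read 6893, 6704 and 7192 in knock-in livers, against 4777, 5915 and 5399 in wild-type livers. All knock-in mice read above all wild-type mice. Slc37a4 was 1.30-fold higher (6930 ± 246 and 5364 ± 570, log2 change 0.37 ± 0.09, limma adjusted p = 0.0221). The call was lost when KI1, KI5, WT2 or WT6 was dropped (adjusted p = 0.0640 to 0.0701). G6pc, the catalytic subunit, read 13248, 12708 and 11436 in knock-in livers, against 7830, 10638 and 10609 in wild-type livers. As for Slc37a4, all knock-in mice read above all wild-type mice, but WT2 lay well below the other wild-type mice. G6pc had a log2 change of 0.37 ± 0.13 and did not pass (limma adjusted p = 0.0692, 95% interval 0.08 to 0.67 before adjustment). It passed where probe sets under the 50th percentile were left out (adjusted p = 0.0494), and without WT2 its log2 change was 0.23.

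Among the regulators, Ppargc1a was measured by 2 probe sets. The brighter read 6447, 5678 and 5635 in knock-in livers, against 871, 1433 and 1346 in wild-type livers, and the other read 3234, 2637 and 2879 in knock-in livers, against 435, 539 and 630 in wild-type livers. On both, the lowest knock-in reading was far above the highest wild-type one. The log2 changes were 2.30 ± 0.18 (limma adjusted p = 0.000454) and 2.42 ± 0.15 (adjusted p = 0.000186), with 95% intervals of 1.87 to 2.73 and 2.07 to 2.77 that overlap. The transcript isoforms of Ppargc1a were not told apart.

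Sik1, the kinase that restrains CRTC2, read 4150, 2587 and 4525 in knock-in livers, against 695, 1067 and 581 in wild-type livers. KI3 read lowest of its group and still above every wild-type mouse. The log2 change was 2.25 ± 0.27 (limma adjusted p = 0.00168), with means of 3754 ± 1028 and 781 ± 254. Crtc2, the coactivator it acts on, read 1780, 1428 and 1891 in knock-in livers, against 830, 941 and 734 in wild-type livers. The groups were well apart, again with KI3 nearest to wild-type. Crtc2 was 2.01-fold higher (log2 change 1.01 ± 0.14, limma adjusted p = 0.00274). Arrays measure transcripts, so the phosphorylation and location of CRTC2 were not seen.

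Creb1 itself, the factor that CRTC2 coactivates, read 320, 332 and 312 in knock-in livers, against 394, 355 and 389 in wild-type livers. All knock-in readings were below all wild-type readings, by a small margin. The log2 change of -0.23 ± 0.09 did not pass (limma adjusted p = 0.110, 95% interval -0.44 to -0.02 before adjustment). Creb3l3 read 455, 714 and 321 in knock-in livers, against 1518, 1275 and 1617 in wild-type livers. Each knock-in mouse read below every wild-type mouse, and KI3 lay nearest to them. Creb3l3 was lower by a log2 change of -1.60 ± 0.26 (497 ± 200 and 1470 ± 176, limma adjusted p = 0.00477). Ppargc1a, Sik1, Crtc2 and Creb3l3 were the 4 members called under all 19 alternatives, each mouse left out in turn included.

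The knock-in mice were not alike. KI3 was the knock-in mouse nearest to the wild-type mean for 8 of the 10 members, and replicate 5 for the other 2, G6pc and Ppargc1a (on its brighter probe set). For Creb3l3 the distance from the wild-type mean was -1.65, -1.02 and -2.13 on the log2 scale in replicates 1, 3 and 5. For Sik1 it was 2.43, 1.75 and 2.56, and for Crtc2 1.08, 0.77 and 1.17. Ppargc1a varied less, at 2.42, 2.24 and 2.23. Without replicate 3, 5 members were called higher and 3 lower as before, and the log2 changes were -1.89 for Creb3l3, 2.49 for Sik1 and 1.13 for Crtc2.

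**Figure D3:**
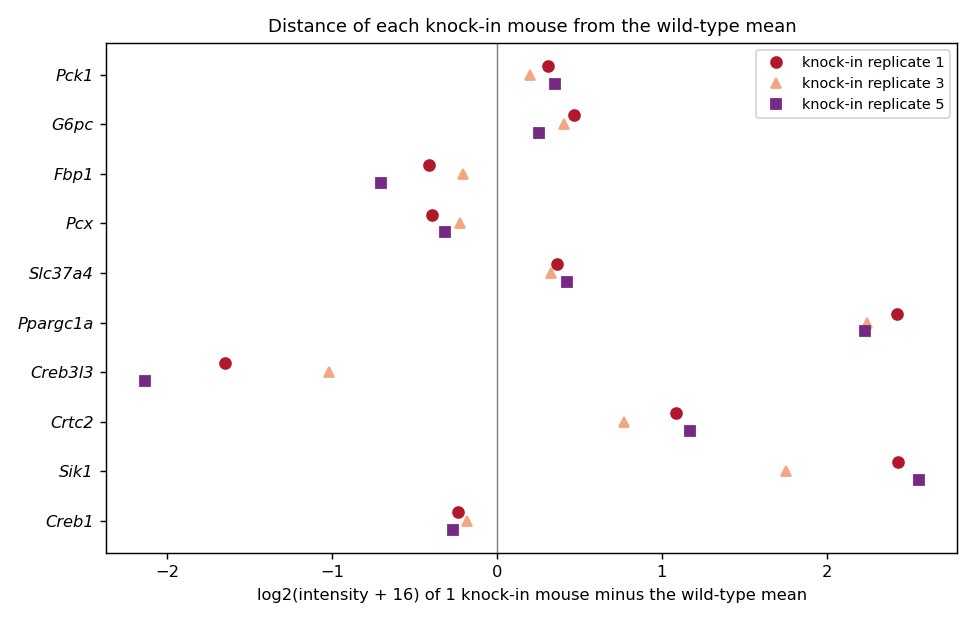
Log2(intensity + 16) of each knock-in mouse minus the wild-type mean, for the 10 members. Replicate 3 (triangles) lies nearest to 0 for 8 members, and all 3 mice lie on the same side of 0 for every member.

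The genes around the members were read from 5 lists, whose counts stand against 14.9% of all tested probe sets called higher and 10.9% called lower. Of 13 cAMP-responsive early genes tested, 12 were higher and 0 lower, with the highest median log2 change of the 5 lists, 1.15 (0.03 over all tested probe sets). The remaining gene, Fos, named after its value was seen, was not called (limma adjusted p = 0.0561). The summed intensity of the list was 9734 to 15276 in knock-in and 3906 to 4828 in wild-type livers. Irs2, an insulin receptor substrate that cAMP induces, read 2553, 1473 and 3074 in knock-in livers, against 470, 462 and 362 in wild-type livers (5.12-fold higher, limma adjusted p = 0.00126). The orphan nuclear receptor gene Nr4a1 read 2154, 776 and 2921 in knock-in livers, against 110, 161 and 100 in wild-type livers, a log2 change of 3.64 ± 0.45, and 4.20 without KI3. In Sik1, Irs2 and Nr4a1 alike, KI3 was the lowest of its group. That order did not extend to the related receptor genes Nr4a2, at 606, 669 and 355 in knock-in livers against 108, 147 and 126 in wild-type livers, and Nr4a3, at 264, 410 and 255 against 50, 48 and 51. Their log2 changes were 1.93 ± 0.23 and 2.28 ± 0.17 (limma adjusted p = 0.00166 and 0.000353). Pde4d, a phosphodiesterase that breaks down cAMP, was higher by 1.58 ± 0.18 and the early gene Ier2 by 0.92 ± 0.09, and the other 6 called members had log2 changes of 0.69 to 1.47. Nr4a3 and Ier2 were dim in wild-type livers (at most 51 and 82), so the size of their changes depended on the pseudocount. Their log2 changes were 2.58 and 1.05 with a pseudocount of 1, and 1.69 and 0.67 with 64, and both stayed called.

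In the list of hormone signalling and transcription, 20 of 42 tested genes were higher and 4 lower, with a median log2 change of 0.39. It shares Nr4a1, Crem and Pde4b with the early genes. The glucagon receptor gene Gcgr was 1.54-fold lower, at 1579, 2042 and 1796 in knock-in livers against 2656, 2690 and 2984 in wild-type livers, with no overlap (limma adjusted p = 0.00747). Prkacb, a catalytic subunit of the cAMP-dependent kinase, was also 1.54-fold lower (adjusted p = 0.0106), and Pde3b, a phosphodiesterase that insulin activates, was 1.89-fold higher (adjusted p = 0.000561). The relatives of Sik1 were higher too, with log2 changes of 0.86 ± 0.10 for Sik2 and 1.17 ± 0.09 for Sik3. Sik3 read 3019, 3095 and 3085 in knock-in livers, against 1231, 1435 and 1415 in wild-type livers. The relatives of Ppargc1a, named after their values were seen, were also called higher. Ppargc1b read 758, 634 and 1057 in knock-in livers, against 338, 370 and 332 in wild-type livers (2.25-fold, limma adjusted p = 0.00384). Pprc1 had a log2 change of 0.41 ± 0.13 (limma adjusted p = 0.0496), just under the threshold. Its call was lost with quantile normalization, with centring and at 1.5-fold or more, among other settings, so it depends on the setting. Of the other CRTC genes, Crtc1 did not pass (log2 change 0.16 ± 0.13, limma adjusted p = 0.416), nor did Crtc3 (0.56 ± 0.17, adjusted p = 0.0524). Crtc3 read 505, 351 and 579 in knock-in livers, against 306, 315 and 320 in wild-type livers, and passed without KI3 (log2 change 0.76, adjusted p = 0.00266). It also passed with array weights, eBayes without trend, the filter at the 50th percentile, gene means and probe sets with exactly 1 gene (adjusted p = 0.0145 to 0.0497), so its call depends on the setting. Whether Crtc2 changed more than Crtc1 or Crtc3 was not tested. Of the factors related to Creb1, Crem was higher at 435, 674 and 387 in knock-in livers, against 248, 200 and 248 in wild-type livers (2.03-fold, limma adjusted p = 0.0104), and Atf1 did not pass (log2 change 0.11 ± 0.09). The Crem probe set does not separate the activator from the repressor isoforms.

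In the same list, Hnf4a, the hepatocyte nuclear receptor that PGC-1alpha coactivates, read 8948, 8707 and 9461 in knock-in livers, against 4529, 5192 and 5479 in wild-type livers (1.79-fold higher, limma adjusted p = 0.00108). Foxo1, which insulin restrains, was higher by a log2 change of 0.89 ± 0.20, a call lost without KI5 (adjusted p = 0.0530), and Sirt1, the deacetylase of PGC-1alpha, by 1.10 ± 0.12. Klf9, a Kruppel-like factor that glucocorticoids induce, was higher by 0.88 ± 0.09, while the glucocorticoid receptor gene Nr3c1 did not pass (-0.11 ± 0.13, limma adjusted p = 0.594). Cebpa, a factor of hepatocyte differentiation, was 2.03-fold lower (adjusted p = 0.00185) and Ppara, the receptor of the fasting response of fat oxidation, 2.95-fold lower (adjusted p = 0.00165).

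**Figure D4:**
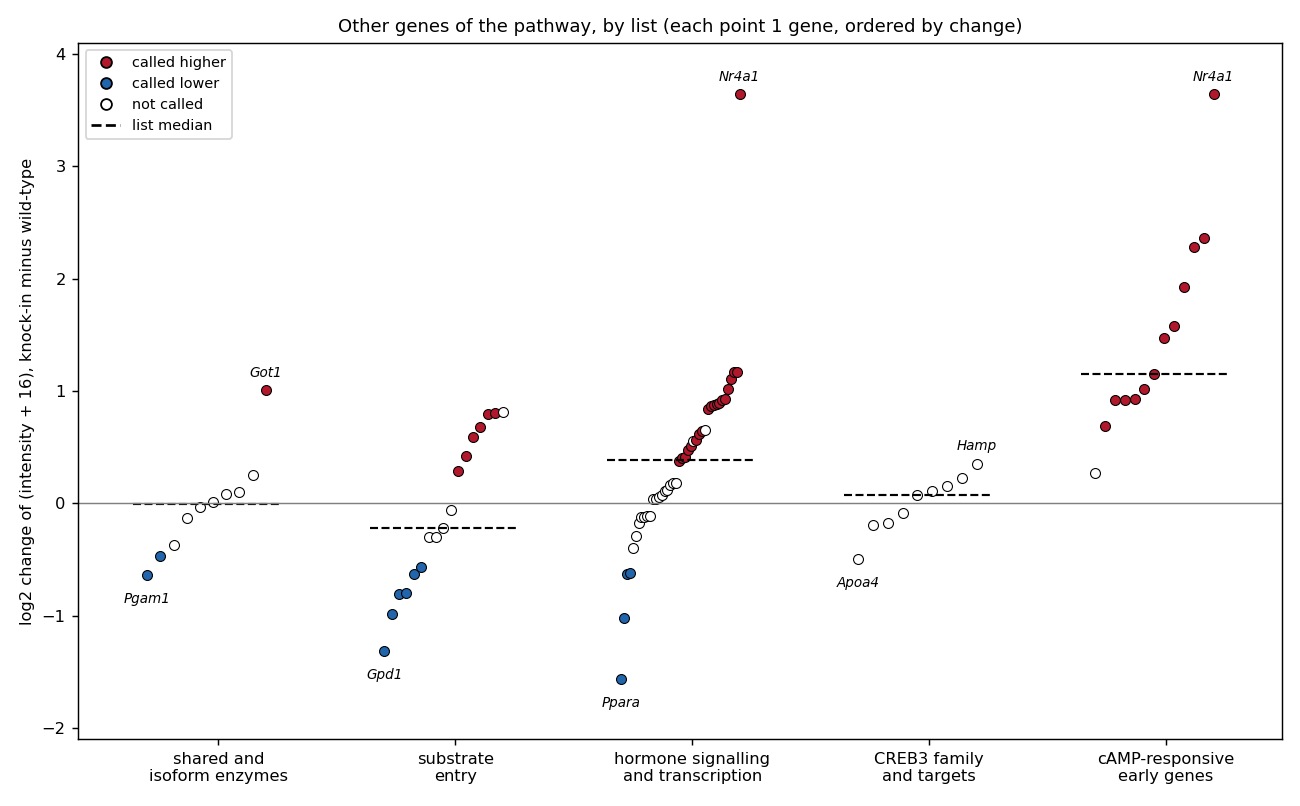
Log2 change (knock-in minus wild-type) of each tested gene in the 5 lists, ordered within a list; filled points were called, and dashed lines mark list medians. The early genes lie above 0 with 12 of 13 called, substrate entry splits into 6 called higher and 6 called lower, and the CREB3 list holds 0 calls.

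Of 17 genes of substrate entry tested, 6 were higher and 6 lower, with a median log2 change of -0.22. The 6 that were higher handle amino acids and lactate or pyruvate: the alanine aminotransferases Gpt (1.74-fold) and Gpt2 (1.60-fold), tyrosine aminotransferase Tat (1.51-fold), the neutral amino acid transporters Slc38a2 (1.74-fold) and Slc38a4 (1.22-fold), and the monocarboxylate transporter Slc16a7 (1.34-fold). Gpt read 2035, 1762 and 2085 in knock-in livers, against 1185, 1019 and 1150 in wild-type livers (limma adjusted p = 0.00238). Other genes of lactate or pyruvate in this list, named after their values were seen, leaned the other way and were not called. Their log2 changes were -0.30 for Ldha, -0.30 for Slc16a1 and -0.22 for Mpc1. The 6 that were lower include the glycerol channel Aqp9 (1.98-fold) and glycerol-3-phosphate dehydrogenase Gpd1 (2.48-fold). Aqp9 read 2778, 3195 and 2952 in knock-in livers, against 6516, 5123 and 6120 in wild-type livers (limma adjusted p = 0.00127). The other 4 are carriers of the inner mitochondrial membrane, namely the citrate carrier Slc25a1 (1.74-fold), the dicarboxylate carrier Slc25a10 (1.75-fold), the oxoglutarate carrier Slc25a11 (1.48-fold) and the aspartate-glutamate carrier Slc25a13 (1.54-fold). Calls were lost for Gpt2 without KI1, KI5, WT2 or WT6 (adjusted p = 0.0549 to 0.0660), for Tat without KI1 (0.0509), for Gpd1 without KI1, WT2, WT4 or WT6 (0.0549 to 0.0803), and for Slc25a13 without any mouse other than KI3 (0.0667 to 0.118) and with no filter (0.0555).

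Of 10 tested enzymes that the route shares with other pathways, or that are isoforms of its own enzymes, 1 was higher and 2 were lower, with a median log2 change of -0.0084. That share of calls is near the 25.9% of all tested probe sets. Got1, the cytosolic aspartate aminotransferase, read 18659, 17254 and 18406 in knock-in livers, against 7642, 9681 and 9806 in wild-type livers (2.01-fold higher, limma adjusted p = 0.000981). Its mitochondrial counterpart Got2 read 6970, 7338 and 6246 in knock-in livers, against 10288, 8361 and 9800 in wild-type livers (1.38-fold lower, adjusted p = 0.0135), a call lost without WT2 or WT6 (0.0508 and 0.0516). The phosphoglycerate mutase gene Pgam1 was 1.56-fold lower (limma adjusted p = 0.0102). The mitochondrial carboxykinase Pck2 and the broadly expressed phosphatase G6pc3 did not pass (log2 changes 0.10 ± 0.11 and 0.08 ± 0.13).

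Beside the lower Creb3l3, genes of the CREB3 family, its proteases and known CREBH targets gave 0 calls among 9 tested by limma, and 2 had an unadjusted p under 0.05. Their log2 changes lay between -0.49 and 0.35. The targets Fgf21, Apoa4 and Hamp are named here after their values were seen. Fgf21 read 60, 62 and 68 in knock-in livers, against 68, 69 and 84 in wild-type livers, and Apoa4 read 5374, 4666 and 3988 in knock-in livers, against 8982, 5217 and 5962 in wild-type livers. The groups touched at Fgf21 and overlapped at Apoa4, and neither passed (limma adjusted p = 0.210 and 0.121). Hamp, at 13319, 13141 and 13963 in knock-in livers against 10122, 13547 and 8536 in wild-type livers, overlapped too and was not called (adjusted p = 0.133). It passed with array weights (adjusted p = 0.0412) and, with WT4 dropped, at 0.0121.

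Gluconeogenesis is strongest in hepatocytes near the portal vein, so markers of the lobule's zones were read as well, and those called are named after their values were seen. Of 2 periportal markers, Cyp2f2 was 2.22-fold lower, at 4673, 7053 and 3902 in knock-in livers against 10926, 11627 and 11114 in wild-type livers, and Hal was 1.39-fold higher (limma adjusted p = 0.00535 and 0.00965). Of 5 pericentral markers, Glul was 1.67-fold and Cyp1a2 5.13-fold lower (adjusted p = 0.00670 and 0.00618), and Oat was 1.28-fold higher (adjusted p = 0.0498), a call lost without any mouse other than KI3 (0.0610 to 0.146). The Oat call was also lost with a pseudocount of 1, quantile normalization, centring, no filter, eBayes without trend and a robust prior (adjusted p = 0.0501 to 0.108). The pericentral markers Cyp2e1 and Slc1a2 were not called (log2 changes -0.07 and -0.16). Over all tested probe sets, 14.9% were called higher and 10.9% lower. The part of zonation in the members' values was not tested.

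The genes whose log2 values over the 6 arrays followed a member most closely were found among 12179 candidates. For Ppargc1a they were Mpzl3, Desi2 and Glt1d1 (Pearson r = 0.999, 0.998 and 0.997), for Pck1 Acta1, Dus1l and 4632415L05Rik (0.991, 0.990 and 0.990), and for G6pc Tas1r3, Tyw3 and Gtf2ird2 (0.986, 0.975 and 0.975). These values are a description over 6 arrays of 2 genotypes.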

How the data were processed

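RNA from 6 livers was hybridised to 1-colour arrays, 1 per mouse, and the labels' protocols give RNeasy isolation and biotin labelling by in vitro transcription. The authors deposited 1 intensity per probe set and array, in whole numbers on a linear scale; the steps from probes to these values were not given in the sources used here. Columns were matched by the sample identifiers in the header, and 0 pairs of arrays were identical. Array medians spanned 0.087 on the log2 scale, so values were used as deposited. There is no sequencing depth on an array, and the number of arrays limits precision.

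Values were transformed as log2(value + 16). Those with a mean log2 value below the 25th percentile were removed and the other 26634 fitted with limma 3.58.1 in R 4.3.3 (lmFit, eBayes with trend), Benjamini-Hochberg over all of them at 0.05. The procedure was tested on simulated data. Errors are SE of log2 changes, SD of intensities and 95% intervals of limma. Each gene was represented by its brightest probe set with 1 symbol. Symbols of all 10 members were the same in RefSeq. Promoter sequences are from RefSeq (GRCm38.p6); probe set coordinates are not reported.

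Members, lists and alternatives were chosen with earlier results of these data known. Named from the 5 lists are the called genes with the smallest p, up to 6 per list and direction, and relatives of the members fixed by name. For Pck1, G6pc and Ppargc1a, the 3 genes of highest Pearson correlation, with a mean at or above the median, are named. The alternatives tried were quantile normalization, pseudocounts of 1 or 64, arrays centred on medians, no filter or one at the 50th percentile, eBayes without trend or with a robust prior, array weights, gene means, probe sets with exactly 1 gene, thresholds of 0.1 or 1.5-fold, and each mouse left out. Figures were drawn with matplotlib 3.10.9.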

Additional observations from a re-analysis of the deposited data

How the results depend on the processing

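No member changed sign under any of the 13 other settings or with any of the 6 mice left out. Over all probe sets, 3974 were called higher and 2914 lower; the counts were 2077 and 1774 at 1.5-fold or more, 2322 higher with gene means and 2643 higher on probe sets with exactly 1 gene, where fewer features were tested. Centring the arrays moved the share of calls that were higher to 47.7%, against 57.7%, and the median log2 change to -0.02, against 0.03. Requiring 1.5-fold left 3 members higher and 1 lower, and 1 lower gene (Pgam1) among the shared enzymes. With mice left out, 3 to 5 members were higher (3 without KI1, KI5 or WT2) and 1 to 3 lower (1 without KI1, WT2 or WT6). Over all probe sets, 2422 to 4271 were then higher (2422, 2602 and 2584 without KI1, WT2 and WT6) and 1814 to 3454 lower (1814 without KI1 and 1876 without WT2). Among the shared enzymes 1 to 3 were lower, 1 without WT2 or WT6. The CREB3 list had 0 to 1 higher, the 1 being Hamp, and 1 also with array weights. Of genes not called, the log2 change of G6pc3 lay between -0.049 (without KI5) and 0.20, and that of Nr3c1 between -0.22 and 0.0071 (without WT2). The cause of these shifts was not tested. With mice left out, the early genes had 10 to 12 higher calls and the hormone list 14 to 21.

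No paired analysis was made because the labels give no pairing between the knock-in replicates (1, 3 and 5) and the wild-type replicates (2, 4 and 6). The number of arrays limits how small a change can be called, and background correction could not be varied on deposited intensities.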
